A study of Mus musculus with 42 samples.

Results

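Liver-labelled libraries of mice fed the AIN93G diet were compared, 6 rich in adipocyte transcripts against 9 rich in hepatocyte transcripts. Of the 42 libraries of the series, 15 entered this contrast, each from 1 mouse. The 6 adipocyte-rich libraries were all 3 replicates of ZT 16 and all 3 of ZT 20. The 9 liver libraries were all 3 replicates of ZT 0, ZT 4, and ZT 8. ZT is the number of hours after lights on, and lights went off at ZT 12. The mice were female C57BL/6 animals (C57BL/6NHsd in the study's methods), received AIN93G from 3 weeks of age for 3 weeks, and were not fasted before they were killed. Poly(A) RNA was sequenced from total RNA. The labels name no mutation, agent, or further treatment. For HFD-fed mice, 6 libraries of ZT 16 and ZT 20 and 9 of ZT 0, ZT 4, and ZT 8 of the same strain and sex served as a reference at the same clock times.

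The members were chosen on 2 measured values, the levels of Alb (albumin) and Adipoq (adiponectin) in CPM, here read counts scaled to the library total alone. Alb was 18.7 to 64.8 and Adipoq 1455 to 2984 in the 6 adipocyte-rich libraries. Alb was 74105 to 111995 and Adipoq 0 to 5.01 in the 9 liver libraries. The libraries nearest to these limits that were not members belonged to ZT 24 and ZT 12. At AIN93G ZT 24, replicates 1 and 2 had Alb at 81.0 and 28.2 and Adipoq at 1658 and 2529, while replicate 3 had Alb at 73226 and Adipoq at 0. At AIN93G ZT 12, Alb was 82898 to 100332. Since every gene was read in the libraries so chosen, the contrast is given as a description without a test. The 6 libraries were taken in the dark phase and the 9 in the light phase, so clock time and RNA composition cannot be told apart in it. It is described as a contrast between these libraries.

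Hepatocytes make most proteins of blood plasma, assemble lipoproteins, convert cholesterol to bile acids, detoxify drugs, release glucose, and dispose of nitrogen as urea. Adipocytes store triacylglycerol in a lipid droplet coated with perilipins, release fatty acids from it by lipolysis, and secrete hormones such as leptin and adiponectin. Both cell types make fatty acids from carbohydrate, and both use the transcription factor C/EBPα. They depend on different partners of it, HNF4α in hepatocytes and PPARγ in adipocytes.

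Total counts were 16063034 to 21368409 in the adipocyte-rich and 15128304 to 17975846 in the liver libraries. Some libraries stood apart within their group. Summed over 8 skeletal muscle genes, ZT 16 replicate 2 had 3940 CPM against 17.9 to 278 in the other 5 adipocyte-rich libraries, and ZT 8 replicate 2 had 2170 CPM against 3.97 to 18.6 in the other 8 liver libraries. Lymphocyte and lymph node genes were high in ZT 16 replicates 1 and 3 and ZT 20 replicate 3. A trace of adipocyte RNA was present in the liver library ZT 4 replicate 3. From here on CPM is scaled by TMM, a factor that aligns the bulk of genes between libraries. TMM factors were 1.33 to 1.65 in the adipocyte-rich and 0.853 to 0.939 in the liver libraries. A fold is the adipocyte-rich over the liver level on the log2 scale.

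The marker genes separated the libraries by several orders of magnitude. Alb, the main plasma protein, was 12.4 to 48.8 CPM (median 37.7) in the 6 adipocyte-rich libraries and 79696 to 129664 CPM (median 96429) in the 9 liver libraries. Apoa1, the main protein of high-density lipoprotein, was 0.113 to 1.06 CPM (median 0.529) against 4691 to 10789 CPM (median 7489.9). No adipocyte-rich library came near a liver library for either gene. Adipoq was 884 to 1997 CPM (median 1518) against 0 to 5.59 CPM (median 0.141). Lep, which encodes leptin, was 269.5 to 1463 CPM (median 982) against 0 to 0.202 CPM (median 0). Plin1, the perilipin that coats the adipocyte lipid droplet, was 655 to 1192 CPM (median 1101) against 0 to 4.71 CPM (median 0.0662). The highest Adipoq and Plin1 values among the liver libraries were both in ZT 4 replicate 3. Apart from Adipoq and Alb, which the choice used, the other 9 adipocyte markers were higher and the other 10 hepatocyte markers lower in the 6 libraries, a description of the libraries so chosen. In these bulk samples, fewer cells of a type and less RNA per cell cannot be told apart. All 6 libraries are labelled liver, but the 10 hepatocyte markers other than Alb summed to 359 to 822 CPM in them against 52609 to 69152 CPM in the 9 liver libraries.

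**Figure D1:**
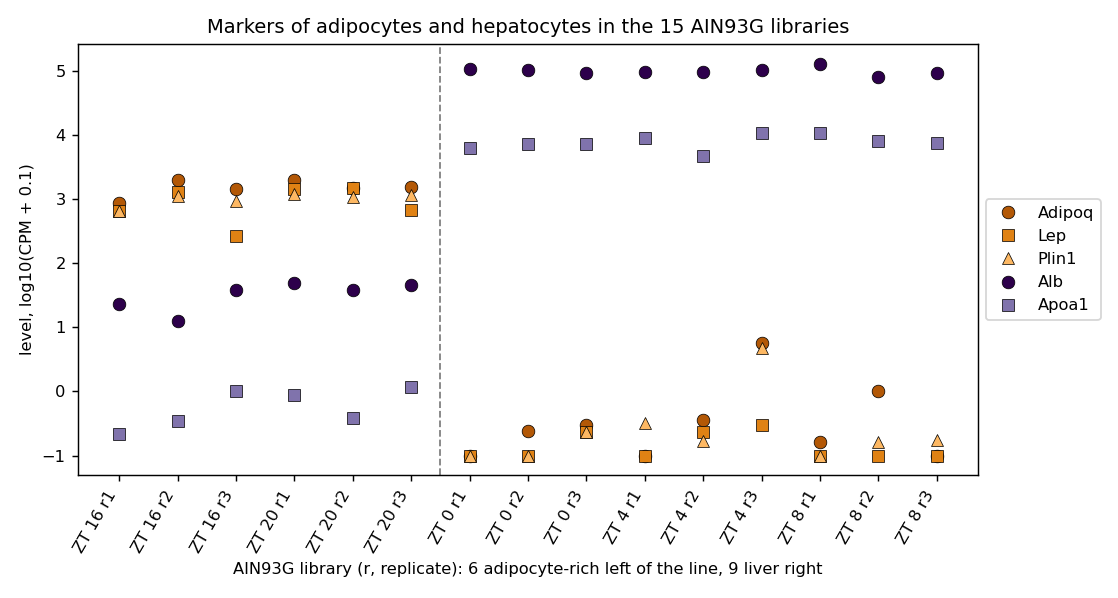
Levels of 3 adipocyte markers (Adipoq, Lep, Plin1) and 2 hepatocyte markers (Alb, Apoa1) in each of the 15 AIN93G libraries, as log10(CPM + 0.1). Left of the dashed line are the 6 adipocyte-rich libraries, where Alb is at most 48.8 CPM. Right of it are the 9 liver libraries, where Adipoq is at most 5.59 CPM.

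The promoters of Alb and Adipoq are shown because these genes chose the members, and that of Lep because it had the highest fold of all genes of at least 100 CPM. Each sequence holds the 250 bases before the annotated start site, 5′ to 3′ on the plus strand of the mouse genome build GRCm38.p6, from RefSeq. Capitals mark matches to the motifs searched, listed with the motif counts.
Alb (chr5:90460620-90460869): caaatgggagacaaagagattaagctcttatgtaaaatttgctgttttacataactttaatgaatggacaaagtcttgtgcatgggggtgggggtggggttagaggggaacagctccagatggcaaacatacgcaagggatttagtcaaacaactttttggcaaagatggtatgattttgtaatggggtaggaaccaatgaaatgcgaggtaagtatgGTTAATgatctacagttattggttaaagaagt
Lep (chr6:29059971-29060220): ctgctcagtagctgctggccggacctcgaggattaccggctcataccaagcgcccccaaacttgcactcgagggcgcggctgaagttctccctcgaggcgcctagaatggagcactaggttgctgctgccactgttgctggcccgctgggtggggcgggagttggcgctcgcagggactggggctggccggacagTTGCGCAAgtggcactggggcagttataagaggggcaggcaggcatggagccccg
Adipoq (chr16:23146286-23146535): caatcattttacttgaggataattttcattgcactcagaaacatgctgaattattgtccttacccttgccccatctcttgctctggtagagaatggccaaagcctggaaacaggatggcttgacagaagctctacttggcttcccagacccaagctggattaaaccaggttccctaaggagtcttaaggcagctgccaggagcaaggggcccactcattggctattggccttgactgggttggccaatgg
The Alb promoter holds GTTAAT, 1 of the motifs searched, 32 to 27 bases before the start site. The Lep promoter holds TTGCGCAA, a palindromic C/EBP site, 55 to 48 bases before the start site. The Adipoq promoter holds no match to the 5 motifs in this window. A match describes the letters and is not evidence of binding.

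Over all genes, the contrast was wide in both directions. Of 13394 genes kept after a filter on low counts, 2527 were higher (18.9%) and 2257 lower (16.9%) in the adipocyte-rich libraries. A gene was called when the 6 libraries all lay above or all below the 9 and the fold was at least 2. A gene could pass the filter through either group, and 1461 of the genes kept had a mean below 25 counts in the 9 liver libraries and 798 in the 6 adipocyte-rich libraries. Counts and medians over the listed genes that were kept are therefore descriptions. More than 16-fold differences were found in 670 of the genes called higher and 834 of those called lower. Differences above 8 on the log2 scale were found in 140 and 461, respectively. For comparison, 38.3% of genes differed by less than 0.5 on the log2 scale, and the median fold was 0.02. Scaled by library size alone, which moved the median fold by 0.71, 4556 genes were called higher and 1538 lower, so that 74.8% of calls were higher instead of 52.8%. Folds between −0.71 and 0 can therefore change sign with the scaling. Between libraries, Pearson's r of log2 CPM across genes was 0.897 to 0.974 within the 6, 0.935 to 0.986 within the 9, and 0.351 to 0.428 between the groups (genes are not independent replicates). Without the 2 libraries with muscle RNA, 2612 genes were higher and 2340 lower. Without the 3 libraries with lymphocyte RNA, 2697 were higher and 2392 lower. Without the liver library with adipocyte RNA, 2543 were higher and 2270 lower.

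Liver transcription was concentrated on fewer genes. The genes that made up 50% of all counts numbered 181 to 243 (median 204) in the liver libraries. In the adipocyte-rich libraries they numbered 461 to 758 (median 576.5). The genes called lower took 56.8 to 60.8% of all counts in liver and 7.01 to 8.02% in the adipocyte-rich libraries. Those called higher took 2.79 to 4.63% in liver and 28.1 to 36.3% in the adipocyte-rich libraries. Mitochondrially encoded genes took 4.55 to 8.75% of counts in the adipocyte-rich and 3.82 to 4.63% in the liver libraries.

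**Figure D2:**
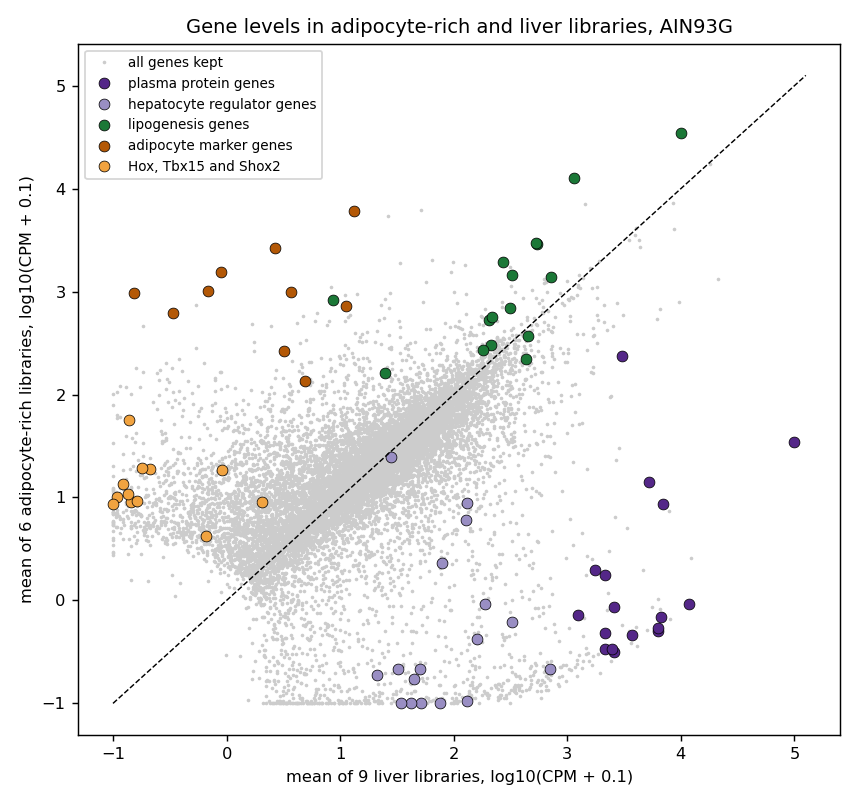
Mean level of each of 13394 genes in the 9 liver libraries (x axis) and in the 6 adipocyte-rich libraries (y axis), as log10(CPM + 0.1), with the line of equal levels dashed. Plasma protein genes (17) and hepatocyte regulator genes (17, with Foxa1 close to the line) lie below the line. Adipocyte markers (10) and the Hox, Tbx15, and Shox2 genes (12) lie above it, and most lipogenesis genes lie near or above it at high levels.

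Plasma protein genes were lower without exception. All 17 genes kept of this list were called lower (16.9% of all genes were), with a median log2 fold of −12.42 (0.02 over all genes). The list holds Alb, which the choice of libraries used, so the call of Alb was fixed in advance. Ttr, which encodes the thyroxine carrier transthyretin, was 0.121 to 1.28 CPM (median 0.295) in the adipocyte-rich and 4943 to 7143 CPM (median 6334) in the liver libraries. Ahsg, which encodes the hepatic glycoprotein fetuin-A, was 0.283 to 1.77 CPM (median 0.724) against 9169 to 14544 CPM (median 12186). Fga, the fibrinogen alpha chain, was 0 to 1.06 CPM (median 0.251) against 5307 to 7147 CPM (median 6294). These 3 genes shared a log2 fold near the lower end of the list (−13.92, −13.83, and −13.94). The other fibrinogen chains kept more. Fgb was 3.18 to 22.4 CPM (median 4.94) and Fgg 1.83 to 45.3 CPM (median 9.28) in the adipocyte-rich libraries, against 5863 to 8306 CPM and 4336 to 6214 CPM in liver. Both were highest in ZT 20 replicate 2. Rbp4, the plasma carrier of retinol that fat also secretes, kept 172 to 477 CPM (median 188) against 2453 to 3896 CPM and had the smallest difference in the list (log2 fold, −3.71). Serpina1a (alpha-1-antitrypsin) was 0.569 to 3.67 CPM against 1274 to 2192 CPM, but its reads can be shared with near-identical copies, and the same holds for Serpina3k, C4b, Scd1, Scd2, and the Cyp2a, Cyp2b, Cyp2c, Cyp3a, and Cyp4a genes named below.

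How much of a liver transcript was left in the adipocyte-rich libraries differed widely between genes. Of 105 genes called lower with a liver mean of at least 1000 CPM, 53 kept less than 0.1% of their liver level, with a median of 0.0114%. Another 13 kept 0.1 to 1%, 16 kept 1 to 10%, and 23 kept more than 10%. Alb kept 0.0124 to 0.0490% in the 6 libraries and Apoa1 0.00143 to 0.0133%. Uox, the urate oxidase of liver peroxisomes, kept the least at 0.00491% of its liver mean. At the other end, Lrp1, a lipoprotein receptor, kept 49.2%, Cdo1, which starts cysteine breakdown, 47.9%, and Hp (haptoglobin) 35.3%. Trf, the symbol of transferrin in the table, kept 4.59%. Uox is named by its fold rank, while Lrp1, Cdo1, Hp, and Trf were chosen after their values were seen.

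Lipoprotein genes followed the plasma proteins. Of 15 genes, 14 were called lower and 1, Pltp, was not, with a median log2 fold of −11.02. Apob, the scaffold of very low-density lipoprotein, was 0.189 to 1.38 CPM (median 0.678) against 5095 to 7867 CPM (median 6632). Apoa5, an activator of plasma lipolysis, was 0 to 0.309 CPM (median 0.0544) against 991 to 1432 CPM (median 1189.8). Apoc2, the cofactor of lipoprotein lipase, had 0 counts in the 6 libraries and was at least 276-fold lower. Apoe, which many cell types including macrophages make, stood apart with 1052 to 1625 CPM (median 1314) against 16103 to 28793 CPM (median 20955) (6.21% of the liver mean). Mttp, which loads lipid onto Apob, was 3.6 to 8.47 CPM against 308 to 468 CPM. Pltp, the phospholipid transfer protein, was 47.4 to 85.8 CPM against 14.6 to 51.1 CPM, and its groups overlapped through ZT 0 replicate 1 (51.1 CPM). Without that library, with library size alone, without the 3 libraries rich in lymphocyte RNA, or against the HFD at ZT 16 and ZT 20, 1 lipoprotein gene was called higher.

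Genes of gluconeogenesis and the urea cycle split into a hepatic and a shared part. Of 10 genes, 8 were called lower, with a median log2 fold over the list of −10.72. G6pc, the phosphatase that frees glucose, was 0.0353 to 0.192 CPM (median 0.077) against 316 to 1092 CPM (median 585). Fbp1, the fructose bisphosphatase of the same pathway, was 0.141 to 0.647 CPM against 1141 to 1750.1 CPM. Cps1, the entry enzyme of the urea cycle, was 0.151 to 1.24 CPM (median 0.247) against 3831 to 7172 CPM (median 4570.2). Asl, its lyase, was called lower as well but kept 16.5 to 18.7 CPM against 339.8 to 693 CPM. Pck1, which adipocytes use to make glycerol for triacylglycerol, was 84 to 1623 CPM (median 613) against 1525 to 3931 CPM (median 2801), and 2 adipocyte-rich libraries (ZT 16 replicates 2 and 3) reached the liver range. Pcx, the pyruvate carboxylase that also supplies lipogenesis, was 585 to 1840.4 CPM against 498 to 717 CPM, with overlapping groups. With library size alone, or with ZT 20 as the only adipocyte-rich time point, 1 gene of the list was called higher.

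Bile acid genes were called lower in all 12 cases, with a median log2 fold of −11.49. Cyp7a1, the rate-limiting enzyme of bile acid synthesis, was read 2 times in the 6 libraries together and was 27.9 to 454 CPM (median 74.7) in liver, a ratio of 9933 (95% counting interval, 2749 to 82023). Abcb11, the bile salt export pump, was 0 to 0.306 CPM (median 0.0705) against 762 to 1426 CPM (median 1059). Slc10a1, the uptake carrier for bile salts, was 0.0756 to 0.768 CPM (median 0.347) against 539 to 1080.0 CPM (median 731). Cyp27a1, a sterol hydroxylase found in many tissues, differed least of the synthetic enzymes other than Hsd3b7, at 22.2 to 38.2 CPM against 321 to 489 CPM. Hsd3b7 was low in both groups (0.0808 to 0.643 CPM against 0.689 to 7.94 CPM).

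Cytochrome P450 genes were mostly lower. Of 11, 8 were lower and 1 was not called, and 2 were higher, a share close to the 18.9% of all genes. Cyp1a2, a drug-metabolizing enzyme of liver, was read 2 times in the 6 libraries together and was 160.1 to 445 CPM (median 275) in liver, a ratio of 21948 (95% counting interval, 6075 to 181237). Cyp3a11, the main mouse counterpart of human CYP3A4, was 0 to 0.441 CPM against 1339 to 2398 CPM. Cyp2e1, an ethanol-inducible enzyme that adipose tissue also transcribes, kept 335 to 805 CPM (median 496) against 3734 to 8726 CPM (median 6514). Its log2 fold was −3.43, and no other gene of the hepatocyte marker list was above −9.73. The 2 genes called higher were Cyp1b1 (7.15 to 13.9 CPM against 0 to 0.918 CPM) and Cyp4b1 (22.6 to 35.1 CPM against 7.27 to 19.4 CPM), both known from tissues outside the liver. Cyp2b10 overlapped at 0.163 to 7.72 CPM against 0 to 2.91 CPM.

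Complement genes were lower on the whole, with a shorter reach. Of 21, 17 were lower, 1 higher, and 3 not called, and the median log2 fold was −2.70. The terminal components C8a and C9 were 0 to 0.383 CPM and 0 to 0.221 CPM in the adipocyte-rich libraries, against 352 to 759 CPM and 217 to 478 CPM in liver. Mbl2, a mannose-binding lectin, was 0 to 0.132 CPM against 672 to 1011 CPM. The central component C3, by contrast, was 567 to 1194 CPM (median 751) against 8607 to 11346 CPM (median 9663), and C4b at 296 to 753 CPM against 1605 to 2141 CPM. Cfd, which encodes adipsin, the factor D that adipocytes supply, was the gene called higher, at 1935 to 3713 CPM (median 2471) against 0 to 19.1 CPM (median 0.202). The liver maximum of Cfd was again in ZT 4 replicate 3. The C1q chains made by macrophages, C1qa, C1qb, and C1qc, overlapped, with log2 folds of 0.89, 0.78, and 0.64. Without the 3 libraries with lymphocyte RNA they were called higher too, which made 4 of 21. The count called higher was also 4 with library size alone, and 2 without ZT 16 replicate 1.

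Most regulators of hepatocyte identity were lower in the adipocyte-rich libraries. Of 17, 16 were called lower, with a median log2 fold of −8.93. Hnf4a was 0 to 0.265 CPM (median 0.118) against 609 to 788 CPM (median 695). Foxa2, Onecut1, Nr1i2 (the pregnane X receptor), and Nr0b2 (a repressor of bile acid synthesis) had 0 counts in all 6 libraries. They were at least 2621-fold, 1738-fold, 3893-fold, and 2149-fold lower. Onecut2 was read 1 time there, a ratio of 20202 (95% counting interval, 3625 to 797981). Ppara, the fatty acid sensor that brown fat also uses, kept more, at 2.08 to 23 CPM (median 4.44) against 96 to 192 CPM (median 129.7). Foxa1 was the exception, at 4.44 to 54.2 CPM (median 21.5) against 19.9 to 39.3 CPM (median 26.4). Its level was highest in ZT 20 replicate 2 (54.2 CPM) and lowest in ZT 20 replicate 1 (4.44 CPM), the same libraries in which the summed level of mammary epithelium genes was highest and lowest. The part of mammary RNA in this was not tested.

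Ranked by the fitted fold, the 10 lowest among genes of at least 100 CPM in liver were Rdh16f2, Cyp2b9, Agmat, Uox, Apoa5, BC025446, Hsd17b6, Hrg, Agxt, and Cyp1a2. Ratios of group counts do not follow this order. Rdh16f2, a retinol dehydrogenase family member, and Agmat, an agmatinase, had 0 counts in the 6 libraries and were at least 15846-fold and 8560.0-fold lower. Uox was 0 to 0.265 CPM against 1422 to 2977 CPM. Hrg, which encodes the plasma histidine-rich glycoprotein, was 0 to 0.177 CPM against 563 to 887 CPM. Agxt, the enzyme that removes glyoxylate, was 0 to 0.132 CPM against 266 to 632 CPM. Hsd17b6 was read 3 times in the 6 libraries together, a ratio of 19348 (95% counting interval, 6620.1 to 93822), and Cyp2b9 2 times, a ratio of 45079 (95% counting interval, 12479 to 372237). BC025446 was read 1 time there.

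Most genes listed for Kupffer, sinusoidal endothelial, stellate, and mesothelial cells were also lower on the adipocyte-rich side. Clec4f, a receptor of Kupffer cells, the resident macrophages of liver, was 0 to 0.0705 CPM (median 0.0192) against 159 to 239 CPM (median 186). Of 5 Kupffer cell genes, 3 were lower, while Timd4 and Marco overlapped. Stab2, a scavenger receptor of sinusoidal endothelium, was 0.162 to 5.9 CPM (median 0.954) against 63.9 to 92.2 CPM (median 72.6), and all 4 genes kept of that list were lower. All 5 genes of hepatic stellate cells were lower, among them Lrat, which esterifies retinol for storage, at 0.0808 to 0.567 CPM against 11 to 24.4 CPM. Hand2, a transcription factor of stellate cells, was read 2 times in the 6 libraries, a ratio of 438 (95% counting interval, 121 to 3622). Of 3 mesothelium genes kept, Upk3b and Msln were lower and Lrrn4 overlapped. Upk3b and Msln were each read 3 times in the 6 libraries, with ratios of 218 (95% counting interval, 74.4 to 1063) and 156 (95% counting interval, 52.9 to 759).

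Genes of adipose hormones and secreted proteins were divided. Of 11 adipokine genes, 5 were higher (Adipoq, Lep, Cfd, Retn, and Apln), 3 lower (Rbp4, Agt, and Rarres2), and 3 were not called. Lep had the highest fold of all genes of at least 100 CPM, a fitted log2 fold of 14.74, which is not a ratio of group levels. It was read 7 times in the 9 liver libraries and 0 times at ZT 8. Without ZT 0 replicate 3, which held all reads of Lep at ZT 0, the fitted log2 fold was 15.74. Both values depend on how the fit handles 0 counts, and neither is a bound. Retn, which encodes resistin, was 459 to 978 CPM (median 570.0) against 0 to 1.95 CPM (median 0). Apln, which encodes apelin, was 3.25 to 12.7 CPM (median 7.73) against 0 to 0.71 CPM (median 0.141). Agt, the precursor of angiotensin, and Rarres2, which encodes chemerin, are made by both tissues and were lower in the adipocyte-rich libraries. Agt was 6.24 to 64.8 CPM against 462 to 939 CPM, and Rarres2 was 62.5 to 136 CPM against 231 to 386 CPM. Angptl4, an inhibitor of lipoprotein lipase, overlapped at 73.6 to 439 CPM against 35.1 to 175 CPM.

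Among the highest folds were genes outside the chosen lists. By the fitted fold, the 10 highest were Lep, Oxtr, Retn, Ankef1, Slc7a10, Plin1, Sncg, Tmem45b, Adipoq, and Ptn, an order that ratios of group levels do not follow. Oxtr, the oxytocin receptor, was 35 to 239.6 CPM (median 61.7) and was read 1 time in the 9 liver libraries, a ratio of 14186 (95% counting interval, 2546 to 560357). Slc7a10, a serine carrier of adipocyte membranes, was 83.4 to 183 CPM (median 107) and was read 2 times in liver, a ratio of 8093 (95% counting interval, 2240.0 to 66829). Sncg, which encodes gamma-synuclein, was 224 to 709 CPM (median 436) against 0 to 0.218 CPM (median 0.0704). Ptn, which encodes the growth factor pleiotrophin, was 24.9 to 190.4 CPM (median 89.5) against 0 to 0.194 CPM (median 0). Ankef1 and Tmem45b were 51.8 to 168 CPM and 138 to 206 CPM, and both were at most 0.364 CPM in liver.

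Genes of the lipid droplet and of lipolysis were higher in 12 of 16 cases, with a median log2 fold of 3.72. Plin4, a perilipin of adipocytes, was 582 to 1879 CPM (median 975) against 1.61 to 25 CPM (median 5.65). Cidec, which fuses droplets into a single large one, was 784 to 1295 CPM (median 948) against 1.61 to 9.63 CPM (median 3.29). Its liver relative Cideb was the gene called lower, at 0 to 0.445 CPM against 39.1 to 66.5 CPM. The lipases differed by step. Pnpla2, which removes the first fatty acid, was 859 to 1523 CPM (median 1321) against 34.1 to 84.3 CPM (median 50.9), and Lipe, the hormone-sensitive lipase, was 453 to 844 CPM (median 775) against 7.46 to 14.4 CPM (median 11.6). Mgll, which acts last, had a median of 705 against 258 CPM. Adrb3, the adrenergic receptor that starts lipolysis in mouse fat, was 37.8 to 380.3 CPM (median 177) against 5.42 to 11.6 CPM (median 8), while Adrb1 was 4.13 to 13.4 CPM against 0.596 to 2.22 CPM. Not all perilipins followed, since Plin2, Plin3, and Plin5 overlapped with log2 folds of 0.02, 0.05, and −0.81. Per kilobase of gene length as deposited, Plin2 was at 156 and Plin1 at 219.7 CPM in the adipocyte-rich libraries, against 145 and 0.126 CPM in liver.

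The transcription factors of adipocytes did not mirror those of hepatocytes. Of 10 regulators, 4 were higher, 1 lower, and 5 were not called. Pparg was 90.6 to 171 CPM (median 134) against 1.52 to 7.54 CPM (median 4.31). Ebf1 and Ebf2, which open adipocyte enhancers, were 50.2 to 110.3 CPM and 13.7 to 29.9 CPM against 0 to 0.673 CPM and 0 to 0.516 CPM. Zfp423, a factor of preadipocytes, was 16.7 to 29.3 CPM against 0 to 0.983 CPM. Cebpa, which both cell types need, was 255 to 601 CPM (median 532) against 374 to 760.2 CPM (median 534), with a log2 fold of −0.12. Klf15 was lower, at 21.9 to 44.7 CPM against 113 to 222 CPM. Cebpb and Cebpd overlapped, with log2 folds of −0.45 and 1.03. With library size alone as the scaling, the log2 folds of Cebpa and Cebpb turned to 0.58 and 0.27, so neither has a settled direction.

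Genes of fatty acid and triacylglycerol synthesis were abundant on both sides. Of 16 genes kept, 3 were higher (18.9% of all genes were), none was lower, and 13 overlapped, with a median log2 fold of 1.66. With library size alone as the scaling 8 were called higher, and with ZT 20 as the only adipocyte-rich time point 12 were. With ZT 16 as the only such time point, without ZT 20 replicate 2, or against the HFD at ZT 16 and ZT 20, 1 was called lower. Scd1, the desaturase of palmitate and stearate, was 24347 to 54426 CPM (median 30301) against 4401 to 23047 CPM (median 8973). Per kilobase, Scd1 was at 7097 CPM in the adipocyte-rich libraries, and Alb was at 42585 CPM in liver. Scd2, its relative outside the liver, was 267 to 1629 CPM (median 723) against 5.03 to 12.7 CPM (median 8.75). Dgat1, which forms triacylglycerol, was 135 to 183 CPM against 19.6 to 33.2 CPM. Fasn, the fatty acid synthase, was 2348 to 19723 CPM (median 13655) against 553 to 2407 CPM (median 1043), and the groups touched only through ZT 16 replicate 2 (2348 CPM) and ZT 0 replicate 1 (2407 CPM). The same adipocyte-rich library was lowest for Acly (389.8 CPM), Acaca (414 CPM), Elovl6 (68.4 CPM), Me1 (333 CPM), and Thrsp (957 CPM), which supply or extend fatty acids. It is the library with the most muscle RNA and also with the highest sum of adipocyte markers (17285 CPM). The source of its low values was not tested. Without it alone, or without it and the liver library with muscle RNA, 9 of the 16 genes were called higher, and without ZT 0 replicate 1, 5 were. Srebf1, which drives this program, and Mlxipl, its carbohydrate-sensing partner, overlapped with log2 folds of −0.33 and −1.03 (0.39 and −0.31 with library size alone).

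The 10 genes with the highest CPM in the adipocyte-rich libraries were Scd1, mt-Co1, Fasn, mt-Cytb, Car3, Lpl, Fabp4, Gsn, mt-Nd1, and CT010467.1. In liver they were Alb, Apoe, mt-Co1, Serpina3k, Ahsg, Scd1, C3, CT010467.1, mt-Cytb, and Apoa1. Fabp4, the adipocyte fatty acid binding protein, was 4212 to 7920.1 CPM (median 6166) against 7.81 to 36.5 CPM (median 9.19). Lpl, the lipoprotein lipase, was 4232 to 8367 CPM (median 5426) against 26.1 to 158 CPM (median 36.4). Car3, a carbonic anhydrase of fat, was 4154 to 9445 CPM (median 7191) against 1030.0 to 2149 CPM (median 1282). Gsn, which encodes the actin-severing protein gelsolin, was 3007 to 7667 CPM (median 5675) against 15.8 to 60.9 CPM (median 24.7). Of 21 genes called higher with a mean of at least 1000 CPM in the adipocyte-rich libraries, only Adipoq, Plin1, and Cfd had a liver mean below 0.1% of that level. The mean was 0.1 to 1% in 5, 1 to 10% in 6, and above 10% in 7. The liver mean of Adipoq, 0.0512% of the adipocyte-rich mean, rested largely on ZT 4 replicate 3, where it reached 0.359%.

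Pairs of related genes for the same step gave a measure that does not depend on the scaling between libraries. For 22 pairs, the log2 ratio of the counts of a gene typical of liver to its relative was formed within each library. The groups did not overlap in any of the 22 pairs. Since each pair was picked as a gene typical of liver and a relative known from other tissues, and ratios of other gene pairs were not formed, nothing is read from this count. The ratio was lower in the adipocyte-rich libraries in 21. In 15 pairs the ratio was above 1 in all 9 liver libraries and below 1 in all 6 adipocyte-rich libraries. The liver-type gene was called lower and its relative called higher in 12 pairs. In 4 pairs only the liver-type gene was called, and in 3 only the relative. In 2 pairs, Pfkl to Pfkp and Scd1 to Scd2, both genes were called higher. Fatty acid binding proteins gave the widest gap, with a log2 ratio of Fabp1 to Fabp4 of 6.85 to 8.91 in liver and −15.77 to −12.70 in the adipocyte-rich libraries. The glucose carriers Slc2a2 (the liver form) and Slc2a4 (the insulin-responsive form) differed by a median of −19.94. For glycolysis the median difference was −17.59 for Pklr to Pkm (pyruvate kinases). In each adipocyte-rich library Slc2a2 was read 0 to 4 times and Pklr 0 to 2 times. Where a gene had so few counts, the size of the difference rests in part on the 0.5 added to each count.

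Lipid genes gave gaps of the same order. The log2 ratio of Lipc, the hepatic lipase, to Lpl was 0.82 to 3.54 in liver and −15.72 to −12.82 in the adipocyte-rich libraries. Aqp9 and Aqp7, the glycerol channels of liver and fat, differed by a median of −18.16, and Cideb and Cidec by −17.05. For the receptors Ppara and Pparg the median difference was −9.62. Other pairs moved less. The ratio of Cpt1a to Cpt1b, the carriers of fatty acids into mitochondria, was above 1 in every library, and its log2 value differed by a median of −4.96. For Pfkl to Pfkp (phosphofructokinases) the difference was −2.04. Acaca to Acacb, the acetyl-CoA carboxylases for synthesis and for the control of oxidation, was the pair with the opposite sign, at 1.14.

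**Figure D3:**
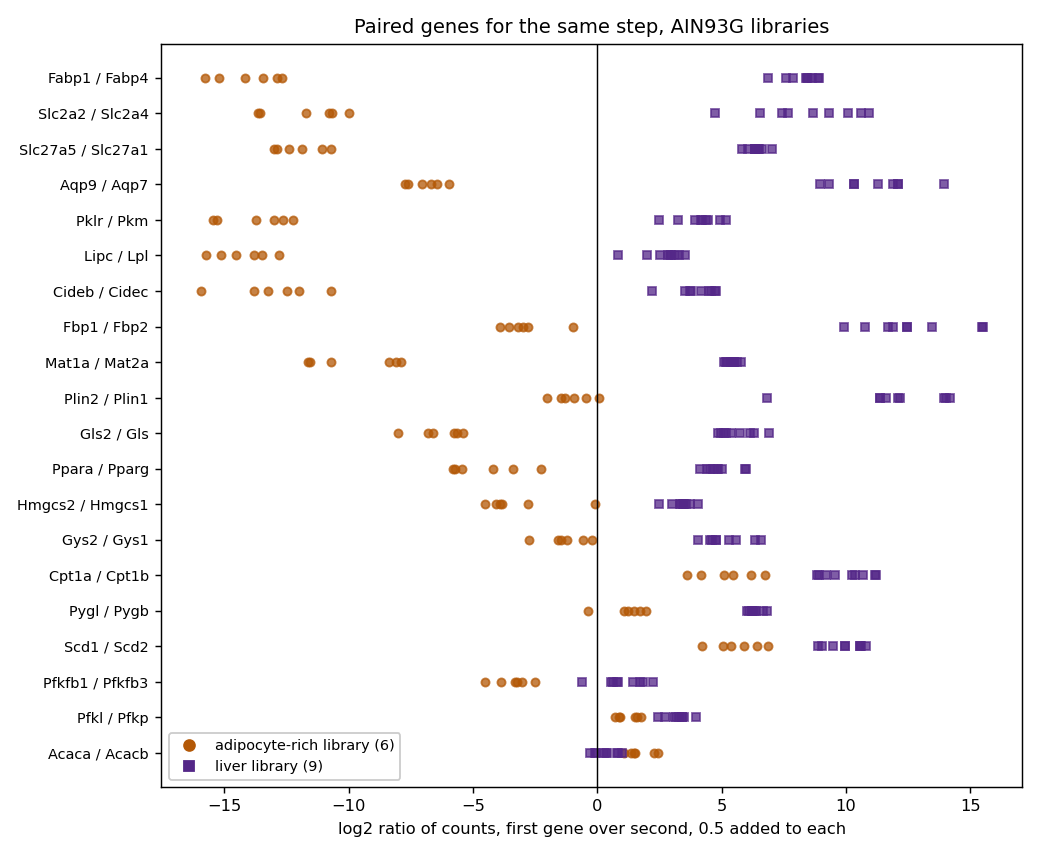
Log2 ratio of the counts of 2 related genes within each library, with 0.5 added to each count, for 20 of the 22 pairs. Circles are the 6 adipocyte-rich and squares the 9 liver libraries, and the line marks equal counts. The groups do not overlap in any pair shown, and all but Acaca to Acacb have the circles on the left.

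Genes of connective tissue were higher without exception. All 16 fibroblast and matrix genes were higher, with a median log2 fold of 4.52. Col1a1, a chain of fibrillar collagen, was 348 to 989.6 CPM (median 518) against 5.59 to 21.5 CPM (median 11.2). Col4a1, of basement membrane, was 484 to 1329.8 CPM (median 790.1) against 41.5 to 63.9 CPM (median 51.6). Dpt (dermatopontin) and Mfap5, of elastic fibrils, were 303 to 773 CPM and 31.2 to 82.3 CPM against 2.25 to 15.3 CPM and 0 to 1.81 CPM. Of 8 general endothelial genes, 6 were higher and none lower, with Pecam1 at 66.3 to 116 CPM against 16.1 to 24.1 CPM. Of 8 macrophage genes, 5 were higher and 3 not called, while against the HFD at ZT 16 and ZT 20, 3 were higher. Adgre1, which encodes the macrophage antigen F4/80, was 10.1 to 39.4 CPM against 18.5 to 30.8 CPM, while Mgl2, a lectin of tissue macrophages, was 20.3 to 63.1 CPM against 0 to 0.968 CPM. Of 6 Schwann cell genes, 5 were higher. Sox10, a factor of Schwann cells, was read 1 time in the 9 liver libraries, a ratio of 872 (95% counting interval, 156 to 34469.9). Of 2 keratinocyte genes kept, Sbsn was higher (3.18 to 23 CPM against 0.135 to 1.53 CPM) and Krt10 overlapped. Listed genes below the filter were Scd3, Csn1s2a, Csn2, Wap, Ccl19, Ccl21a, Krt1, Lor, Flg, Krtdap, Dsg1a, Wt1, Upk1b, Bnc1, En1, Hoxb7, and Hoxd3. Of these, the skin genes Krt1 and Flg were read 8 and 0 times and Hoxb7 465 times in the 6 libraries together. The symbols Tf and Fcn3 were not found in the table.

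Patterning genes that record body position were transcribed on the adipocyte-rich side. Of 15 listed genes, 12 were kept and called higher. Of these 12, only Hoxb4 had a mean of at least 25 counts in the liver libraries, so the filter on low counts all but fixed their direction and nothing is read from the tally. Tbx15, known from subcutaneous white fat, was 11.2 to 26 CPM (median 16.9) against 0 to 7.23 CPM (median 0). Shox2 was 4.67 to 35.3 CPM (median 18.5) against 0 to 0.71 CPM (median 0). Hoxc8 was 41.4 to 73.1 CPM (median 53.5) and was read 5 times in the 9 liver libraries. Hoxc9 had 0 counts in liver and was at least 376-fold higher. Hoxa10 and Hoxc10 were read 1 and 3 times in liver, with ratios of 1315 (95% counting interval, 236 to 51962) and 586 (95% counting interval, 200.3 to 2845). Hoxa5 and Hoxb4 were less particular, with Hoxa5 at 2.91 to 5.25 CPM against 0.188 to 1.39 CPM and Hoxb4 at 7.86 to 12.9 CPM against 0.845 to 3.45 CPM. Hoxd3, which was below the filter, was read 23 times in the 6 libraries and 0 times in liver. In liver, Tbx15 reached 7.23 CPM in ZT 8 replicate 2, the library with muscle RNA, and at most 0.0766 CPM in the other 8.

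The 6 adipocyte-rich libraries varied in some gene lists far more than in others. The 10 adipocyte markers summed to 10442 to 17285 CPM and the 8 endothelial genes to 323 to 504 CPM, while muscle and lymphocyte genes spanned more than 100-fold. Of 8720 genes with a mean of at least 10 CPM in the 6 libraries, 191 differed more than 10-fold between the highest and the lowest library and 63 more than 100-fold. The highest value of these 191 was in ZT 16 replicate 1 for 117 genes, in ZT 16 replicate 2 for 41, and in ZT 20 replicate 2 for 20. Skeletal muscle genes were highest in ZT 16 replicate 2, where the fast myosin gene Myh4 was 1172 CPM and the muscle actin gene Acta1 was 767 CPM. In the other 5 libraries Myh4 was 1.73 to 99.1 CPM. None of the 8 muscle genes was called in the contrast, and without ZT 8 replicate 2 of liver, alone or with ZT 16 replicate 2, 1 was called higher.

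Lymphocyte and lymph node genes varied the most among the lists by the ratio of highest to lowest sum, from 4.71 to 1333 CPM. Glycam1, a selectin ligand made in the venules through which lymphocytes enter lymph nodes and also in mammary gland, was 403, 131, and 78.8 CPM in ZT 16 replicates 1 and 3 and ZT 20 replicate 3. It was at most 0.0808 CPM in the other 3, and it had 0 counts in liver. All 16 genes kept of the list overlapped with liver, where the list summed to 8.69 to 15.5 CPM. With library size alone, with ZT 16 or ZT 20 as the only adipocyte-rich time point, without ZT 16 replicate 2 or ZT 20 replicate 1, without both libraries with muscle RNA, or against the HFD at ZT 16 and ZT 20, 1 of the 16 was called higher. Without the 3 libraries rich in the list, a choice that lowers it, 4 were called lower. Cd3e, of T cells, was 0.106 to 30.4 CPM against 0.0673 to 0.704 CPM.

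Brown adipocyte genes were present at uneven levels. Ucp1, the uncoupling protein of brown and beige adipocytes, was 144, 5, and 203 CPM at ZT 16 and 18.2, 166, and 329.8 CPM at ZT 20. It was not called, because it was 27 CPM in the liver library ZT 4 replicate 3 and at most 0.0673 CPM in the other 8. Without that library, 4 of the 7 brown adipocyte genes were called higher. Cidea, a droplet protein of brown adipocytes, was 20.9 to 303 CPM (median 131) and was lowest in the same library as Ucp1. Of 7 brown adipocyte genes, 3 were higher (Cidea, Cox8b, and Dio2), none was lower, and 4 overlapped. Against the HFD at ZT 16 and ZT 20, 5 of the 7 were called higher. Mammary epithelium genes were higher in 8 of 12 cases, with a median log2 fold of 6.50, or 6.11 with genes at 0 counts set to their bound. Of these 8, only Epcam had a mean of at least 25 counts in the liver libraries. The filter on low counts thus all but fixed the direction of the others, and nothing is read from the tally. Krt5 and Krt17, keratins of the basal layer, and Csn3, which encodes kappa-casein, had 0 counts in liver and were at least 315-fold, 124-fold, and 544-fold higher. Krt14, Krt5, and Csn3 were all lowest in ZT 20 replicate 1 and highest in ZT 20 replicate 2. Krt5 was 0.741 and 16.2 CPM there. Krt8, Krt18, and Cldn3 are epithelial genes that hepatocytes also transcribe, and Cldn3 was lower at 1.8 to 15.9 CPM against 58.3 to 109 CPM, while Krt8 and Krt18 overlapped. Without ZT 20 replicate 2, 3 genes of the list were called lower.

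Hox genes of the posterior groups set 1 library apart. Hoxa10 was 0.731 CPM in ZT 16 replicate 2 and 6.92 to 21.9 CPM in the other 5 libraries. Hoxc9 was 0.772 CPM there against 8.05 to 12.4, and Hoxc10 was 0.853 CPM against 11.9 to 24.4. Hoxc6 and Hoxc8 were not low in it, at 18.6 and 46.8 CPM, both inside the range of the other 5. The same library had the most muscle RNA and the least Ucp1. Whether these differences share a source was not tested.

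**Figure D4:**
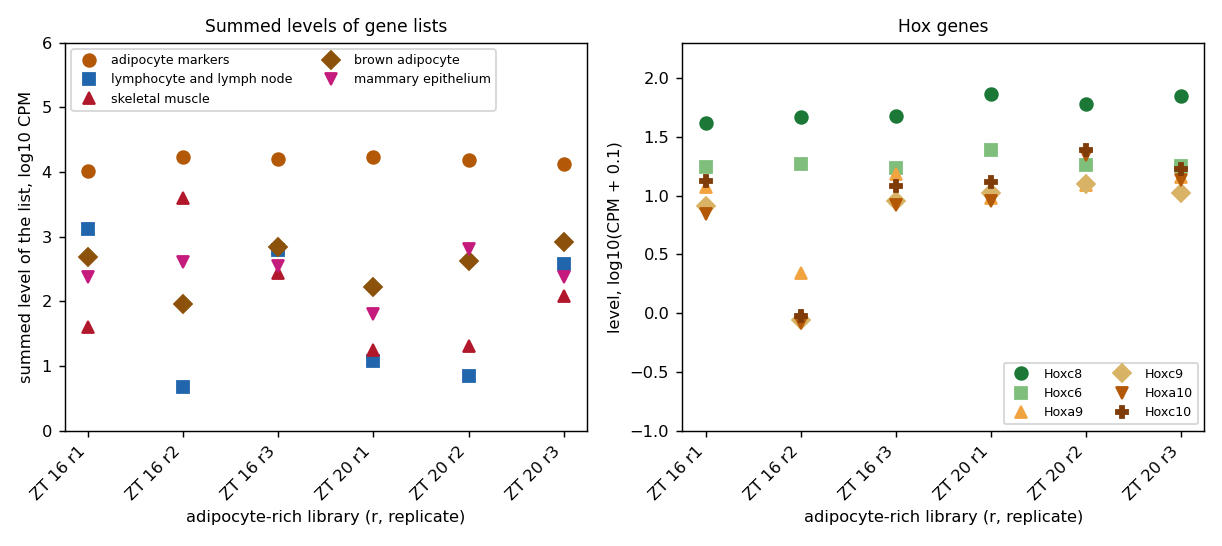
Left, summed level of 5 gene lists in each of the 6 adipocyte-rich libraries, as log10 CPM. Right, level of 6 Hox genes in the same libraries, as log10(CPM + 0.1). Adipocyte markers span 10442 to 17285 CPM, muscle genes peak in ZT 16 replicate 2 at 3940 CPM, lymphocyte genes range from 4.71 to 1333 CPM, and Hoxa9, Hoxa10, Hoxc9, and Hoxc10 dip in ZT 16 replicate 2.

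Within the 6 libraries, ZT 20 was tested against ZT 16 with edgeR's quasi-likelihood test, and no gene passed (0% of 13394 genes at an adjusted p under 0.05). At an unadjusted p under 0.05 there were 1353 genes, and DESeq2 called 91 higher and 68 lower. The lowest adjusted p of edgeR was 0.151, for Dtx4, a ubiquitin ligase of the Notch pathway. Dtx4 was 19.8, 16.9, and 15.6 CPM at ZT 16 and 86.3, 106, and 67.8 CPM at ZT 20, so the time points did not overlap. It passed with DESeq2 (log2 difference of 2.27, adjusted p = 3.65e-18) and in edgeR with no filter on low counts (adjusted p = 0.00708). Other genes of low p were Nr1d2, Cry1, Ppp1r3d, Klb, Dbp, Npas2, Per2, and Itga11, of which Nr1d2, Cry1, Dbp, Npas2, and Per2 belong to the clock or its output. Arntl, which encodes BMAL1, was 10.9, 3.66, and 6.21 CPM at ZT 16 and 32.6, 30.3, and 21.3 CPM at ZT 20 (log2 difference, 1.97 ± 0.42 SE, adjusted p = 0.478 by edgeR). Nr1d2, a repressor of Arntl, was 37.9, 64.5, and 57.4 CPM at ZT 16 and 9.2, 6.79, and 13.2 CPM at ZT 20 (log2 difference, −2.47 ± 0.31 SE, adjusted p = 0.478). Fasn was lowest in ZT 16 replicate 2, and its log2 difference of 1.23 ± 0.69 SE had an adjusted p of 0.562 by edgeR. The biological coefficient of variation was 0.340 in this group and 0.225 in the 9 liver libraries.

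Among the 9 liver libraries, 256 genes (1.91%) differed between ZT 0, ZT 4, and ZT 8 at an adjusted p under 0.05 (edgeR), out of 1948 at an unadjusted p under 0.05. The genes of lowest p were Usp2, Nr1d2, Per3, Ciart, and Npas2, all tied to the clock. Per3, a repressor of the clock, rose, with means of 2.46, 6.05, and 83.8 CPM at ZT 0, ZT 4, and ZT 8 (adjusted p = 2.43e-05 by edgeR). Npas2, a partner of BMAL1, fell, with means of 29.5, 7.29, and 0.203 CPM (adjusted p = 5.93e-05 by edgeR). Without ZT 0 replicate 1, 2, or 3 or ZT 8 replicate 2 (the library with muscle RNA), the count was 155, 118, 118, and 144, respectively. Of 10 clock genes, 7 changed between these time points. In the tissue contrast 8 of the same 10 genes overlapped, and the median log2 fold of the list was −0.0021. Over all genes, 47.2% had groups that did not overlap, and nothing is read from the count of 10 genes. Hlf was lower at 12.8 to 28.5 CPM against 37.7 to 82.4 CPM, and Bhlhe41 was higher at 18.5 to 54.4 CPM against 0 to 7.81 CPM. With library size alone or at a fold of 4, no clock gene was called lower, and with library size alone or ZT 20 as the only adipocyte-rich time point, 2 were called higher. Arntl was 3.66 to 32.6 CPM against 1.38 to 46.9 CPM.

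At the same clock times on the HFD, both sides held hepatocyte transcripts and the differences were small. Alb was 77159.8 to 126404 CPM and Adipoq 0 to 0.441 CPM in the 6 HFD libraries of ZT 16 and ZT 20. Of 13394 genes, 347 rose (2.59%) and 327 fell (2.44%) from ZT 0, ZT 4, and ZT 8 to ZT 16 and ZT 20 (edgeR, adjusted p under 0.05), out of 2617 at an unadjusted p under 0.05. The median absolute log2 fold was 0.16, against 0.75 in the AIN93G tissue contrast. Without HFD ZT 16 replicate 3, ZT 20 replicate 1, or ZT 20 replicate 2, the counts were 222 and 189, 215 and 166, and 194 and 150, and without ZT 0 replicate 2, 202 genes fell. Only 1 gene exceeded 16-fold, Gm45819, which was named after its values were seen. Of the 4784 genes called in the tissue contrast, 287 (6.00%) passed the HFD test, against 5.03% of all genes. These are 42.6% of the 674 genes that passed it, and 153 of the 287 had the same sign in both. Over all genes, 18.9% were called higher and 16.9% lower in the tissue contrast, and nothing is read from this overlap.

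The genes that moved on the HFD were led by the clock. Cry1, a clock repressor, rose, with a log2 fold of 1.96 ± 0.15 SE (adjusted p = 2.16e-06 by edgeR). It was 61.6 to 98.8 CPM in the 6 HFD libraries of the dark phase, while on AIN93G it was 16 to 35.2 CPM in the adipocyte-rich and 7.87 to 50.1 CPM in the liver libraries. Arntl rose by 1.45 ± 0.10 SE (adjusted p = 3.48e-07 by edgeR), but not in a fit without a term for the time point (0.65, adjusted p = 0.605). Per2, another clock repressor, rose by 1.97 ± 0.21 SE (adjusted p = 7.98e-05 by edgeR). Nr1d1, a repressor of Arntl, fell, with a log2 fold of −3.70 ± 0.24 SE (adjusted p = 3.48e-07 by edgeR). Of 10 clock genes, 4 rose and 2 fell. Tspan4 and Col27a1 were among the other genes of lowest p that rose, with log2 folds of 1.26 ± 0.12 and 2.10 ± 0.20 SE, and Syt1, Hectd2os, Gm31333, and Sgk2 fell, with log2 folds of −1.78 ± 0.19, −2.38 ± 0.25, −1.58 ± 0.18, and −1.07 ± 0.13 SE.

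On the HFD, 5.03% of all genes passed in either direction, against which the counts of short lists say little. None of the 11 hepatocyte markers and 10 adipocyte markers passed the test. Of 17 plasma protein genes none passed, with a median log2 fold of 0.03 against −12.42 in the tissue contrast. Of 16 lipogenesis genes, 7 rose and none fell. Thrsp, a lipogenic factor, rose by 1.97 ± 0.32 SE (adjusted p = 0.00212 by edgeR) and Elovl6, which elongates palmitate, by 1.84 ± 0.36 SE (adjusted p = 0.00889 by edgeR). Fasn rose by 1.33 ± 0.34 SE (adjusted p = 0.0341 by edgeR). The other 4 were Acacb, Agpat2, Me1, and Mlxipl, with log2 folds of 1.34, 0.60, 0.97, and 0.52. Fasn missed the threshold when any of 9 of the 15 HFD libraries was left out (adjusted p = 0.0535 to 0.113), Me1 without ZT 16 replicate 1 or ZT 20 replicate 1 (0.0617 and 0.0829). Thrsp, Agpat2, and Me1 also missed it without a term for the time point (0.0784, 0.0623, and 0.0564). Lpl, which was 6.97 higher on the log2 scale in the tissue contrast, fell on the HFD, with a log2 fold of −0.88 ± 0.16 SE (adjusted p = 0.00527 by edgeR). Agxt fell as well, with a log2 fold of −0.99 ± 0.13 SE (adjusted p = 0.000759 by edgeR). The p-values measure the spread between mice of the same time point, with 3 mice at each.

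**Figure D5:**
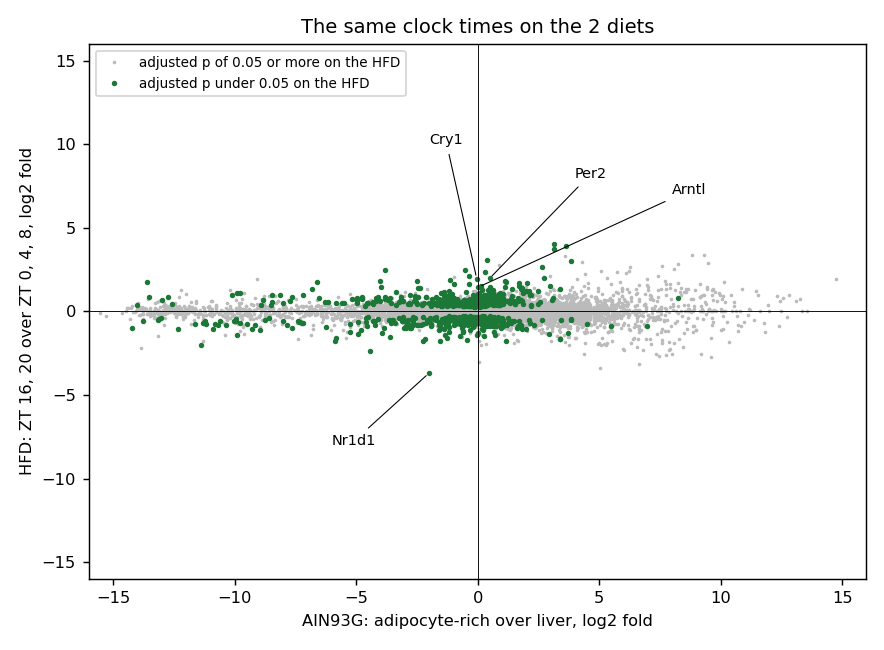
Log2 fold of each of 13394 genes in the AIN93G tissue contrast (x axis) and between the same clock times on the HFD (y axis), on equal scales. Green points had an adjusted p under 0.05 on the HFD, and 4 clock genes are named. The points spread widely along the x axis and stay close to 0 on the y axis, with median absolute folds of 0.75 and 0.16.

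Promoter motifs were counted in the 250 bases before and 50 bases after each start site of the RefSeq table, on either strand. The motifs were the letters GTTAAT, the C/EBP palindrome TTGCGCAA, the nuclear receptor core AGGTCA, a direct repeat of that core with 1 base between the copies (DR1, which also counts as the core), and the TATA box letters TATAAA. Of the 100 genes of lowest fold, 80 had a promoter in the table. GTTAAT was found in 23 of them (28.8%), against 8.24% of all 27025 promoters and 5.86% of the 10244 promoters of genes kept in the contrast. AGGTCA was found in 27 (33.8%) against 18.1% and 15.6%, and TATAAA in 28 (35%) against 15.7% and 9.55%. TTGCGCAA and DR1 were found in none, against 0.207% and 0.0481% of all promoters. Of the 100 genes of highest fold, only 67 had a promoter in the table, so nothing is read from the counts on that side. GTTAAT was found in 5 of the 67 (7.46%), AGGTCA in 11 (16.4%), and TATAAA in 11 (16.4%). TTGCGCAA was found in 1 (1.49%) and DR1 in none. These shares describe letters in a window, and the genes were chosen by their fold.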

How the data were processed

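Counts of reads per gene were deposited by the authors for 42 libraries in 1 table. The submitters' processing notes name mm10, fastp, STAR, HTSeq 0.6.1, DESeq, and STAR-Fusion without giving their roles, and strand settings are not given in the sources used here. Counts were used as deposited. Genes with a mean of at least 25 counts over the 42 libraries were kept (13394 of 54532), and CPM were scaled by TMM in edgeR 4.0.16 (R 4.3.3). A floor of 3 counts over a group bounded folds against 0 counts, and 95% counting intervals were exact and cover counting error only. Near-identical or overlapping genes may share reads.

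The members, gene lists, and tests were chosen with earlier results of these data known. Tissue calls required groups that did not overlap and a fold of at least 2, with no test. The 3 comparisons that the choice did not use were tested with edgeR's quasi-likelihood test and Benjamini-Hochberg adjustment over all kept genes: ZT 20 against ZT 16 among the 6 adipocyte-rich libraries, ZT 0, ZT 4, and ZT 8 among the 9 liver libraries, and ZT 16 and ZT 20 against ZT 0, ZT 4, and ZT 8 on the HFD, with each time point as its own group. Steps were tested on simulated data. Replicates are separate mice.

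Genes were named as members of the lists, as the 10 highest and 10 lowest folds with a group mean of at least 100 CPM, as the 10 highest CPM per group, or by the lowest p of each test (5 in each direction on the HFD, 5 between ZT 0, ZT 4, and ZT 8, and 10 between ZT 20 and ZT 16). Gene lengths came from the deposited table and promoters from RefSeq (GRCm38.p6). DESeq2 1.42.0, other scalings, filters, and thresholds, and leaving out each replicate were alternatives. Leaving out the libraries with muscle or lymphocyte RNA was added after the data were seen. AIN93G ZT 12 entered the liver side in 1 alternative. Values of some genes that the rule names are not reported here.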

Additional observations from a re-analysis of the deposited data

Results flagged for a closer look

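Of 66 groups and lists of 4 to 10 libraries examined, 9 held a library whose gap to the nearest other library was wide for the range of the group. The nominal rate by chance is about 1 in 20. The groups share genes and libraries, and some hold Alb or Adipoq, which chose the libraries, so nothing is read from the count. The summed level of 8 skeletal muscle genes was 3940 CPM in ZT 16 replicate 2 (17.9 to 278 in the other adipocyte-rich libraries) and 2170 CPM in ZT 8 replicate 2 (3.97 to 18.6 in the other liver libraries). ZT 8 replicate 2 was also apart in limb and trunk patterning genes, at 11.6 CPM (1.9 to 4.59). ZT 20 replicate 1 was apart in plasma protein genes, at 542 CPM (222 to 283), of which Rbp4 alone made up 477 CPM, and in Schwann cell genes, at 151 CPM (56.7 to 87). ZT 4 replicate 3 was apart from the other liver libraries in Adipoq, at 5.59 CPM (0 to 0.904), and in Plin1, at 4.71 CPM (0 to 0.218). ZT 8 replicate 1 had the highest sum of hepatocyte markers, 199000 CPM (139000 to 169000), of which Alb, used in the choice, made up 129664 CPM. ZT 0 replicate 1 had the highest sum of hepatic stellate cell genes, 317 CPM (210 to 258). Among libraries outside the comparisons, Adipoq was 1370 and 1910 CPM in AIN93G ZT 24 replicates 1 and 2 and 1340 and 1530 CPM in HFD ZT 24 replicates 1 and 2, far above the 9 liver libraries.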

How the results depend on the processing

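Genes called in the tissue contrast numbered 4556 higher with library size alone, 1228 higher and 1355 lower when every library had to reach 25 counts (10011 genes), and 1599 higher and 1471 lower at a fold of 4. With no filter they numbered 3754 and 2592 of 32024 genes, a set that adds genes of low counts. Leaving out 1 library gave 2535 to 2608 higher and 2258 to 2314 lower, and all 22 pairs stayed apart. With AIN93G ZT 12 added to the liver libraries there were 2455 higher and 2209 lower. On the HFD, DESeq2 called 532 higher and 573 lower, no filter 632 and 585, and 2 groups with no time point term 143 and 161. Leaving out 1 library gave 194 to 409 higher and 150 to 399 lower. For ZT 20 against ZT 16, DESeq2 called 91 higher and 68 lower, no filter gave 1 and 1, and leaving out 1 library gave 0. Arntl, Nr1d2, and Dtx4 passed with DESeq2 there (log2 differences of 1.96, −2.49, and 2.27), and Nr1d2 and Dtx4 in edgeR with no filter (adjusted p = 0.0369 and 0.00708). For ZT 0, ZT 4, and ZT 8, DESeq2 called 784 genes, no filter 1187, and leaving out 1 library 118 to 329. No result changed direction among called values under the alternatives run. The cause of these changes was not tested. No paired analysis was possible because the labels do not say what the numbers that recur in library names across time points stand for, and the replicate numbers used here follow only the order of deposit. Depth sets the limit for genes at 0 to 3 counts in a group, where folds are bounds or wide intervals.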

Other observations

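In the libraries of ZT 24, which entered no comparison, replicate 2 of both diets carried muscle RNA together with adipocyte RNA. Myh4 was 3862 CPM in AIN93G ZT 24 replicate 2 and 4131 CPM in HFD ZT 24 replicate 2, against 5.03 and 5.66 CPM in replicate 1 of the same diets. Hoxc10 was 1.07 and 3.73 CPM in replicate 2 and 15.6 and 10.4 CPM in replicate 1. Hoxc8 was 48.6 and 30.5 CPM in replicate 2 and 89.6 and 50.3 CPM in replicate 1. High muscle RNA with low Hoxc10 was thus seen in ZT 16 replicate 2 and in these libraries of ZT 24, while Hoxc8 was present throughout. The source was not tested.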
